A study of Homo sapiens with 15 samples.

Results

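The genes described are 10 cell surface antigens of plasma cells that serve as markers or therapy targets in multiple myeloma: SDC1, TNFRSF17, TNFRSF13B, SLAMF7, LY9, FCRL5, GPRC5D, CD38, CD28 and CD47. They were taken by name from a list, not by their values, though with earlier results of these data known. All 10 were found among the 57773 genes of the count files. All 10 were also among the 13085 genes with enough counts to be tested. The samples were MM.1S tumours in bone marrow. MM.1S, an established line of human myeloma cells that here expressed GFP and luciferase, was injected by vein into SCID-beige mice, which lack working lymphocytes and have impaired natural killer cells. Mice of the PBS group received saline once a week. The bortezomib group received the proteasome inhibitor at 0.25 mg/kg once a week, and the elesclomol group received the copper ionophore at 25 mg/kg by subcutaneous injection. The combination group received both drugs in the same way, and the delayed combination group, labelled with both drugs as well, began elesclomol 14 days after inclusion. Each group had 3 sequenced tumours (n = 3), and marrow was flushed from the femurs at the end of the experiment, so all values are those of tumours that had grown to the endpoint. All tumours derive from 1 cell line in an immunodeficient host, and no group of healthy plasma cells was sequenced.

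Plasma cells carry a characteristic set of surface proteins that changes as B cells mature. CD20 is lost, while syndecan-1 (CD138) and BCMA appear. BCMA (TNFRSF17) and TACI (TNFRSF13B) bind the survival ligands APRIL and BAFF, SLAMF7 and CD38 are bound by antibodies used in patients, and BCMA, GPRC5D and FCRL5 are targeted by bispecific antibodies or engineered T cells. Loss of a target from the surface can limit such therapy, and transcript level is one of several layers that set the amount of surface protein. RNA was measured here and surface protein was not.

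The libraries held 4500326 to 13161087 counts. Depth differed by group, with 4500326 to 6287708 counts with PBS and 11060930 to 13161087 in the delayed combination. The highest of the other libraries, combination 1, held 9227140. Mitochondrial genes took 35.03% to 40.31% of the counts. The 10 plasma cell identity markers checked were all detected, with a summed level of 12187 to 15287 CPM (counts scaled to a common library total with TMM factors, a correction for library composition) in the 15 libraries. Of this sum, JCHAIN alone held 7204 to 9766 CPM. In 3 libraries, bortezomib 1, combination 1 and delayed combination 2, gene levels relative to the other libraries rose with the GC content of the transcripts. Their correlations across genes were 0.498, 0.486 and 0.309, and they are called the 3 that followed GC content. The PBS libraries went in the other direction, at -0.337 to -0.281. So did bortezomib 2 (-0.299), elesclomol 2 (-0.263) and combination 2 (-0.244). Leaving out the 3 libraries therefore does not remove this trend from the comparisons with PBS. Elesclomol 1 held the most signal from marrow host markers, with a summed erythroid level of 342 CPM where the lowest elesclomol library had 29.8 CPM. In flushed marrow, fewer cells of a type and less RNA per cell cannot be told apart.

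Before treatment effects were considered, the antigens were ordered by level per kb of exon in the PBS tumours. SDC1 was highest at 304 ± 4.31 CPM per kb (SD, n = 3), followed by TNFRSF17 at 219 ± 3.91 CPM per kb. They stood at the 99.6th and 99.5th percentiles of tested genes. SLAMF7 at 81.5 ± 3.40, CD28 at 79.6 ± 3.28, CD38 at 73.3 ± 4.86 and GPRC5D at 66.7 ± 7.11 CPM per kb came next, and each of these overlapped its neighbour in the order. CD47 had 22.0 ± 0.209 CPM per kb and LY9 13.1 ± 1.85 CPM per kb, and TNFRSF13B had 8.91 ± 1.82 CPM per kb. FCRL5 was lowest at 4.16 ± 0.983 CPM per kb, at the 49.6th percentile of tested genes. The order of means differed between groups only among SLAMF7, CD28 and CD38. CD38 was 5th with PBS and 3rd with bortezomib, elesclomol and the combination. Some neighbours that were separate with PBS overlapped elsewhere without a change of order. SDC1 and TNFRSF17 overlapped in the combination tumours, LY9 and TNFRSF13B in the elesclomol tumours, and TNFRSF13B and FCRL5 in the delayed combination tumours.

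**Figure D1:**
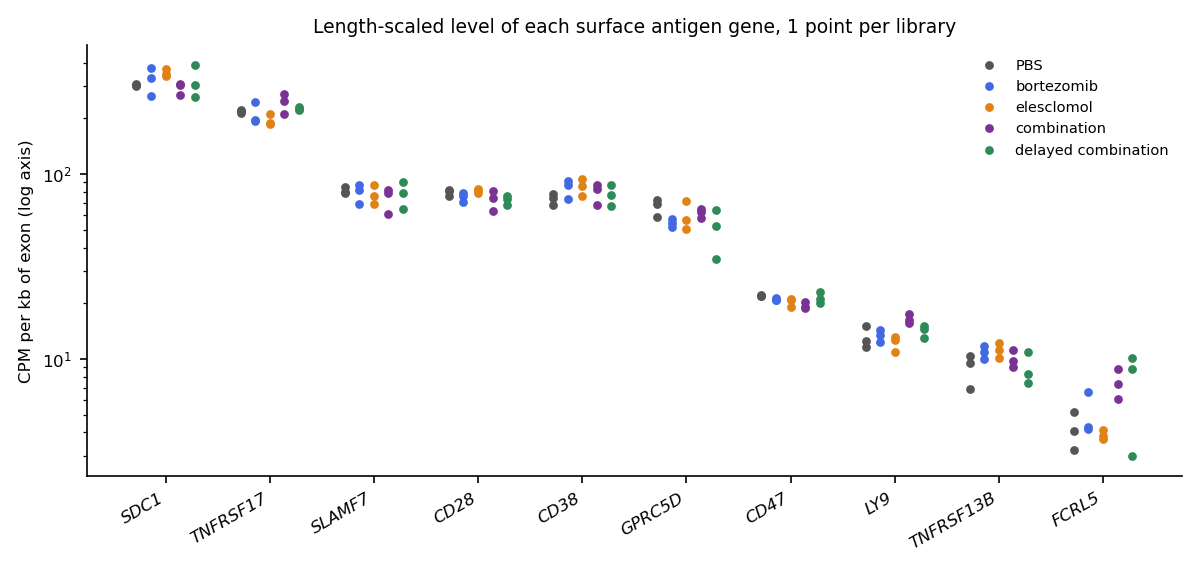
Level of each antigen gene in CPM per kb of exon on a log axis, with 1 point per library and the 5 groups in colour. SDC1 and TNFRSF17 lie above the other 8 genes in every library, and FCRL5 spreads most, with the delayed combination libraries on both sides of the PBS libraries.

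No antigen passed the test in any treatment. Each treatment was compared with PBS by edgeR's quasi-likelihood test, with p-values adjusted by Benjamini-Hochberg over all 13085 genes and a threshold of 0.05. The count was 0 of 10 for bortezomib (0% of all tested genes passed), 0 of 10 for elesclomol (0.0688% of all tested genes), 0 of 10 for the combination (0% of all tested genes) and 0 of 10 for the delayed combination (0% of all tested genes). At an unadjusted p under 0.05, none of the 10 was below it for bortezomib and none for elesclomol, where 10.6% and 8.07% of tested genes were. For the combination 3 were below it (LY9, FCRL5 and CD47; background 13.6%), and for the delayed combination 2 (GPRC5D and FCRL5; background 11.1%). The 4 comparisons share the same 3 PBS libraries, so their values are not independent of each other.

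The 95% intervals give the sizes that these data leave possible. Over the 10 antigens and 4 comparisons, the fitted log2 change ranged from -0.40 for GPRC5D to 0.83 for FCRL5 with a median of -0.03, and the antigens' median was 0.00, -0.09, 0.03 and 0.02 for bortezomib, elesclomol, the combination and the delayed combination. The median over all tested genes was 0.02, 0.00, 0.01 and 0.01 in the same order. Of the 40 intervals, 37 lay within 2-fold in both directions and 32 within 1.5-fold. The 3 that reached beyond 2-fold all belonged to FCRL5. The range of adjusted p-values from edgeR was 0.291 to 0.975.

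**Figure D2:**
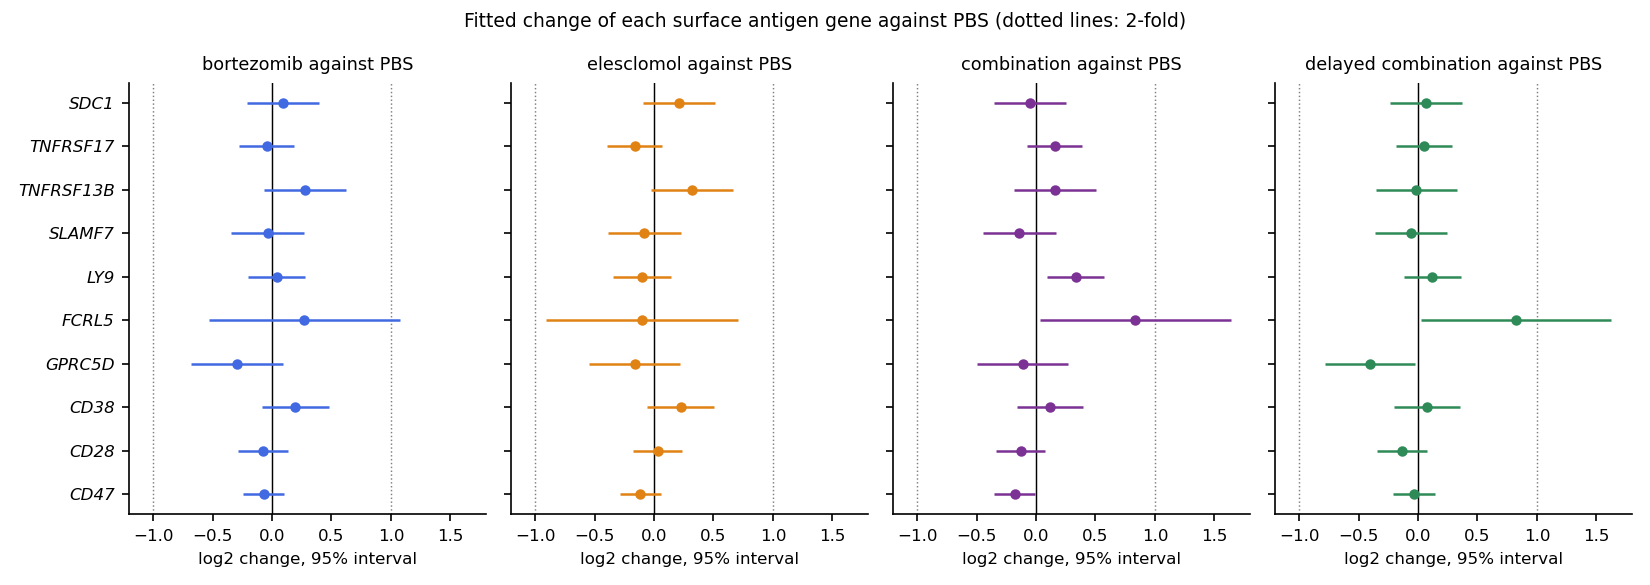
Fitted log2 change against PBS with its 95% interval for each antigen gene, in 1 panel per treatment, with dotted lines at a 2-fold change. Of the 40 intervals, 37 stay between the dotted lines, and the FCRL5 interval is the widest in each panel.

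The antigens differed in how much they varied among the 15 tumours. CD47 spanned 1.23-fold from its lowest to its highest library and CD28 1.30-fold. FCRL5 spanned 3.43-fold and GPRC5D 2.10-fold, while the other 6 spanned 1.39-fold to 1.77-fold. Set against genes of similar level, the SD of log2 CPM of FCRL5, 0.568, stood at the 95.8th percentile of 1949 genes, and that of CD47, 0.0841, at the 5.66th percentile of 671 genes. FCRL5 and CD47 were thus the ends of the set, and their upstream sequences are shown for that reason.

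The sequences are the 250 bases before the RefSeq start site, on the strand of the gene (GRCh38.p14), 5′ to 3′. FCRL5 is at chr1:157552516-157552765 on the minus strand and CD47 at chr3:108091032-108091281 on the minus strand. Capitals mark motif matches, which are CCAAT in FCRL5 and GGGCGG in CD47, on either strand.
FCRL5: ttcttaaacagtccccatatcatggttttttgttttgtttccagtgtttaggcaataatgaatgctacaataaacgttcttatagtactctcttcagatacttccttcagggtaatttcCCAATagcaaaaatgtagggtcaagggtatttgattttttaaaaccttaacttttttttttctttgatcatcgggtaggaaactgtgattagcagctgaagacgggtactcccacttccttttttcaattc
CD47: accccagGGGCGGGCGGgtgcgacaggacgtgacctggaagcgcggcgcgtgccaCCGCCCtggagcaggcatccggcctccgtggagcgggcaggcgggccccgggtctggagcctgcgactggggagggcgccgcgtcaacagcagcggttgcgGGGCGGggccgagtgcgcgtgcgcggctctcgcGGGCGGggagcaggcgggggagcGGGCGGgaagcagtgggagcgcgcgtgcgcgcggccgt
The FCRL5 window had 34.8% GC with 3 CpG dinucleotides, and the CD47 window had 79.6% GC with 39 CpG, where the median of 35116 RefSeq promoters was 58% GC. CD47 held 6 matches to GGGCGG, the GC box, and FCRL5 held 1 CCAAT box. Of all promoters of this length, 42.6% held GGGCGG and 32.0% held CCAAT. Promoters were found for 7 of the 10 antigens, and not for TNFRSF17, SLAMF7 and LY9. The composite element of ETS factors and IRF4 was found in CD38 and CD28 and in 2.41% of all promoters. GPRC5D held TGCTGAC, part of the MAF recognition element (3.43% of all promoters), and 2 matches to TATAAA (10.7%). The interferon-stimulated response element (3.02%), the octamer ATGCAAAT (1.63%) and the E box CACGTG (6.34%) were not found in these windows. All motifs were searched on both strands. A match describes the letters and is not a measured binding site.

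FCRL5, an Fc receptor-like protein of B cells and plasma cells that binds IgG, had the 2 largest fitted changes against PBS of the set, and neither passed the test. It measured 64.3, 50.6 and 40.0 CPM in the PBS libraries. In the combination libraries it measured 75.0, 90.8 and 109.7 CPM, and all 3 lay above the highest PBS library. In the delayed combination libraries it measured 36.8, 110.1 and 126.3 CPM. Here 1 library was the lowest of all 15 and the other 2 were the highest of all 15, so that group straddled the PBS range. The bortezomib libraries had 51.9, 82.0 and 52.9 CPM and the elesclomol libraries 51.0, 45.6 and 47.2 CPM, both overlapping PBS.

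The fitted FCRL5 difference between combination and PBS was 0.83 ± 0.37 on the log2 scale (SE; 95% interval 0.03 to 1.64; edgeR adjusted p = 0.36), with means of 91.8 ± 17.4 and 51.6 ± 12.2 CPM (SD, n = 3). The difference between delayed combination and PBS was 0.82 ± 0.37 (interval 0.02 to 1.62; edgeR adjusted p = 0.45), with a mean of 91.1 ± 47.7 CPM in the delayed group. That value rested on which library was included. Without delayed combination 1 the difference was 1.19 ± 0.22 and passed (edgeR adjusted p = 0.0451), when 0.344% of tested genes passed. Of the other Fc receptor-like genes in the list, 4 of 7 were tested, none passed in any of the 4 comparisons with PBS, and their median log2 change was 0.70 for the combination and 0.27 for the delayed combination. FCRLA, an intracellular relative, had 10.2 ± 6.37 CPM in the delayed combination and 4.37 ± 2.14 CPM with PBS (edgeR adjusted p = 0.414).

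Because FCRL5 is also a B cell gene, markers of B cells were read beside it. Of 8 B cell markers 4 were tested. MS4A1 (CD20) and PAX5 did not exceed 0.221 and 0.442 CPM in any library. The summed level of the list was 68.7 to 78.6 CPM with PBS, 69.0 to 79.7 CPM with bortezomib and 66.3 to 81.6 CPM with elesclomol. It was 85.5 to 99.4 CPM in the combination and 71.8 to 88.4 CPM in the delayed combination, so the combination libraries did not overlap those of PBS. CD79A, a signalling chain of the B cell receptor, measured 13.1, 11.4 and 10.7 CPM with PBS, 37.2, 24.7 and 24.0 CPM in the combination, and 13.5, 29.3 and 28.3 CPM in the delayed combination. CD79A was singled out after its values were seen, and CR2 and BACH2 did not share its pattern. CR2, a complement receptor, measured 17.6, 24.4 and 23.7 CPM with PBS and 11.9, 21.3 and 16.8 CPM in the combination, and BACH2, a regulator of B cells, 22.8 to 28.8 and 23.8 to 26.0 CPM. CD79B, the partner of CD79A, overlapped between these groups, at 18.1, 14.0 and 9.69 CPM with PBS and 23.4, 17.6 and 20.6 CPM in the combination. In the delayed combination CD79B measured 14.9, 23.3 and 19.1 CPM, which also overlapped PBS. The part of these genes in the FCRL5 values was not tested.

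Over the 15 libraries, the genes whose log2 CPM followed FCRL5 most closely among 8489 searched were OPN3 (Pearson r = 0.953), BTK (r = 0.939) and NCF4 (r = 0.928), a description that carries no test. BTK, the Bruton tyrosine kinase of B cell receptor signalling, measured 35.9, 27.1 and 20.3 CPM with PBS, 50.5, 43.1 and 53.1 CPM in the combination and 22.8, 51.9 and 49.4 CPM in the delayed combination. The delayed combination 1 library was apart from the other 2, as it was for FCRL5, which the choice of genes by likeness to FCRL5 brings with it. NCF4, a subunit of the phagocyte oxidase, had 9.21 CPM in that library and 28.1 and 26.4 CPM in the other 2. The points of such a correlation share their library, its depth and its base composition.

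**Figure D3:**
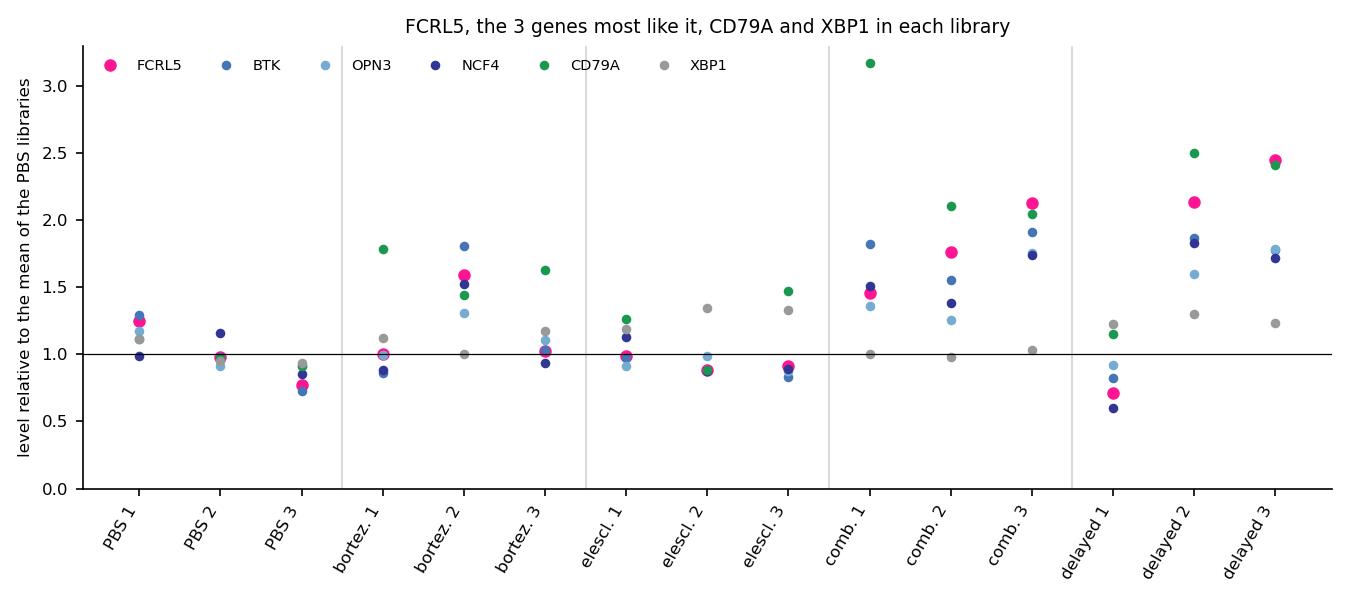
Level of FCRL5, of the 3 genes that follow it most closely, of the B cell marker CD79A and of the plasma cell regulator XBP1 in each of the 15 libraries, relative to the mean of the 3 PBS libraries (line at 1). FCRL5 at 36.8 CPM in delayed combination 1 lies below the PBS mean, and delayed combination 2 and 3 at 110.1 and 126.3 CPM lie above every PBS library.

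The SLAM family is represented by SLAMF7 and LY9 (SLAMF3), receptors of hematopoietic cells that mostly bind themselves on neighbouring cells. LY9 measured 138.2, 113.2 and 106.1 CPM with PBS and 158.6, 143.3 and 148.3 CPM in the combination. All 3 combination libraries lay above all PBS libraries, by little over PBS 1. The fitted difference was 0.33 ± 0.11 (interval 0.09 to 0.58; edgeR adjusted p = 0.291), with means of 150 ± 7.84 and 119 ± 16.8 CPM. LY9 had 122.7, 131.2 and 112.9 CPM with bortezomib, 114.9, 99.0 and 119.4 CPM with elesclomol and 118.3, 132.4 and 137.8 CPM in the delayed combination. These 3 groups overlapped PBS.

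LY9 in the combination was also set against each single drug. Against elesclomol the difference was 0.43 ± 0.11 (edgeR adjusted p = 0.205), the smallest adjusted p of the 90 member values over 9 comparisons. Against bortezomib it was 0.29 (edgeR adjusted p = 0.999). With these 2 groups alone and the replicate number as a block it was 0.31 ± 0.08 (edgeR adjusted p = 0.335), and 0 of the 10 antigens passed beside 5 of 12302 tested genes (0.0406%), where none passed in the model of all groups. The interaction term, which asks whether the combination differs from the sum of both single-drug changes on the log2 scale, was 0.39 ± 0.16 (edgeR adjusted p = 0.493). Of the 10 antigens, 0 passed in the combination against bortezomib (0% of tested genes), 0 in the combination against elesclomol (0% of tested genes), 0 in the delayed combination against bortezomib (0%) or against the combination (0%), and 0 for the interaction (0.00764%). At an unadjusted p under 0.05 edgeR gave LY9 in the combination against bortezomib (4.23% of tested genes), LY9, TNFRSF17 and FCRL5 in the combination against elesclomol (12.2%), and LY9 and TNFRSF17 for the interaction (8.79%). It gave none in the delayed combination against bortezomib (3.52%) or against the combination (2.63%).

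SLAMF7, the target of elotuzumab, had a mean of 394 ± 16.4 CPM with PBS and means of 358 to 384 CPM in the treated groups, which all overlapped PBS. Its fitted changes lay between -0.14 and -0.04. Of 9 other genes of the SLAM family and its adaptors only CD48 and SLAMF6 had enough counts to be tested, and neither passed. CD48, the ligand of CD244, had 419 ± 52.3 CPM in the delayed combination and 331 ± 25.6 CPM with PBS (log2 difference 0.34 ± 0.11, edgeR adjusted p = 0.364). SLAMF6 was at 4.89 ± 2.54 and 1.87 ± 0.446 CPM in the same groups (edgeR adjusted p = 0.364). The adaptors SH2D1A (SAP) and SH2D1B (EAT-2), which couple these receptors to kinases in lymphocytes, were at 0 and at most 0.189 CPM.

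BCMA (TNFRSF17) is the receptor through which APRIL sustains long-lived plasma cells. It measured 245.4, 248.1 and 239.6 CPM with PBS, 209.5, 210.4 and 234.7 CPM with elesclomol, and 301.4, 278.7 and 237.3 CPM in the combination. The elesclomol libraries all lay below PBS, and the combination libraries overlapped it because combination 3 lay just below the PBS libraries while the other 2 lay above. The bortezomib libraries had 274.1, 216.2 and 219.3 CPM, and the delayed combination had 258.9, 249.0 and 251.2 CPM, just above PBS in all 3. Fitted changes against PBS were -0.05 for bortezomib, -0.16 for elesclomol, 0.16 for the combination and 0.05 for the delayed combination, and the SE was 0.11 in each. The combination and elesclomol differed by 0.32 ± 0.11 (edgeR adjusted p = 0.274), and the interaction was 0.37 ± 0.15 (edgeR adjusted p = 0.511).

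BCMA is cut from the surface by gamma-secretase, so the 6 subunit genes of that protease were listed. All 6 were tested and none passed against PBS. Nicastrin (NCSTN) had 107 to 148 CPM over the 15 libraries. APH1A, a scaffold subunit, was at 206 ± 26.3 CPM in the combination and 160 ± 4.46 CPM with PBS (log2 difference 0.36 ± 0.13, edgeR adjusted p = 0.297). Their median log2 change was 0.11 for bortezomib, -0.05 for elesclomol, 0.22 for the combination and 0.21 for the delayed combination, beside 0.02, 0.00, 0.01 and 0.01 over all tested genes.

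TACI (TNFRSF13B), the second receptor for APRIL and BAFF, had the lowest counts of the set, with 108 reads in its lowest library. It measured 24.4, 33.8 and 36.7 CPM with PBS, 35.5, 38.9 and 41.5 CPM with bortezomib and 43.3, 36.0 and 39.8 CPM with elesclomol. Both drug groups overlapped PBS through its highest library. The fitted changes were 0.28 ± 0.16 and 0.32 ± 0.16 (edgeR adjusted p = 0.508 and 0.663). Both rested in part on PBS 1, and without it they were 0.13 and 0.17. In the combination TACI had 35.4 ± 3.69 CPM and in the delayed combination 31.4 ± 6.40 CPM. The third receptor of the system, TNFRSF13C (BAFF receptor), did not exceed 0.487 CPM in any library. The 7 tested genes of this system, ligands and TRAF adaptors included, gave no call. APRIL itself (TNFSF13) had 1.68 to 4.42 CPM and BAFF (TNFSF13B) 0.519 to 2.83 CPM.

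**Figure D4:**
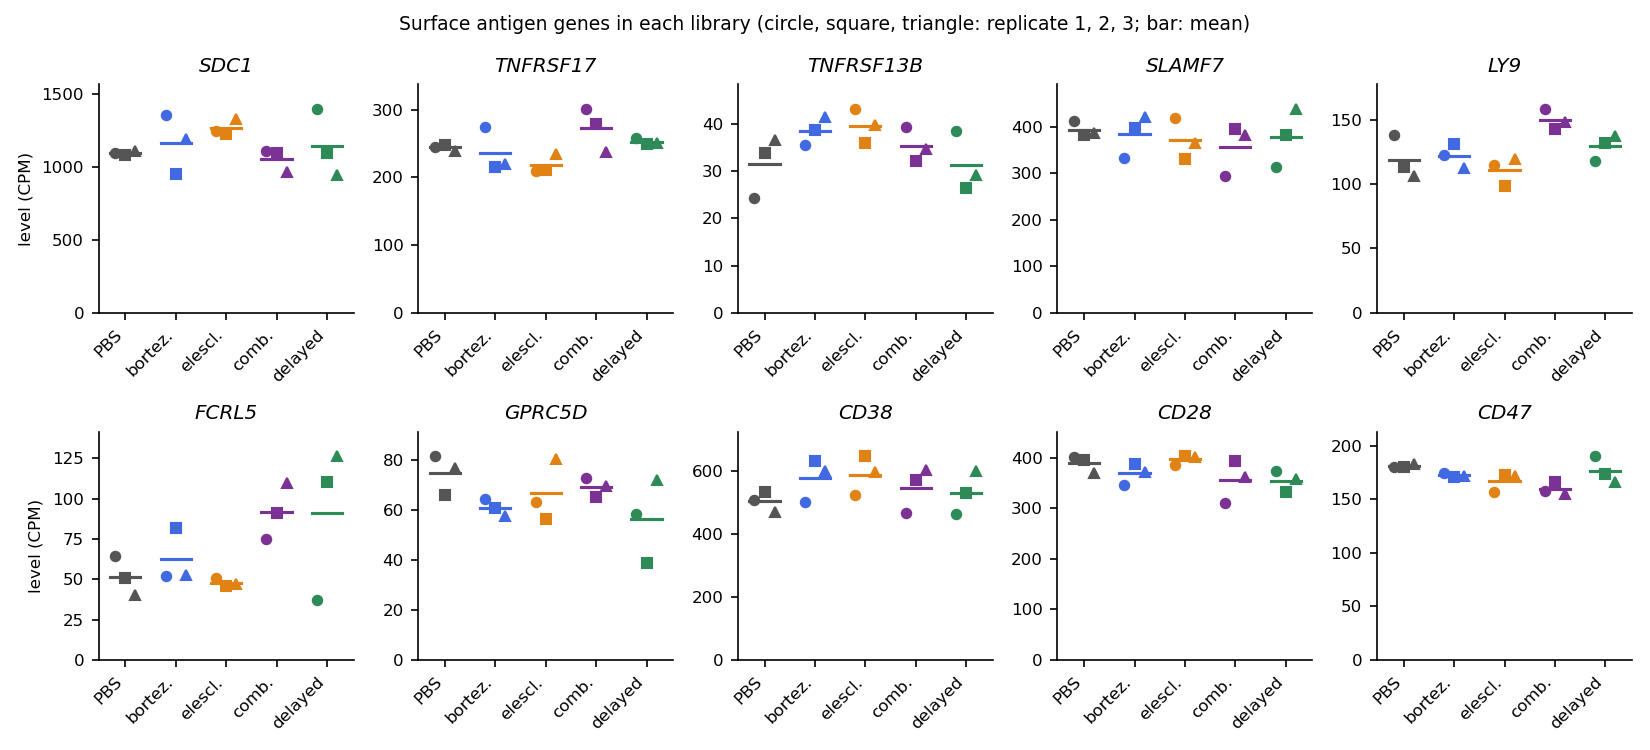
CPM of each antigen gene in the 15 libraries, with a panel per gene, a symbol per replicate and a bar at each group mean, on axes that start at 0. FCRL5 and LY9 are above all PBS libraries in the 3 combination libraries, and CD47 is below all PBS libraries in the same 3.

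GPRC5D, an orphan G protein-coupled receptor of plasma cells and hair follicles, measured 81.7, 66.1 and 77.0 CPM with PBS. The delayed combination libraries had 58.7, 39.0 and 72.0 CPM and overlapped PBS. The difference was -0.40 ± 0.18 (interval -0.79 to -0.02; edgeR adjusted p = 0.445), with means of 56.6 ± 16.6 and 75.0 ± 7.99 CPM. With single libraries left out, the difference ranged from -0.616 to -0.196. GPRC5D had its lowest value of all 15 in delayed combination 2, 1 of the 3 libraries that followed GC content. It ranked 9th and 4th of 15 in bortezomib 1 and combination 1, the other such libraries. The bortezomib libraries, at 64.4, 60.8 and 57.8 CPM, all lay below PBS (log2 difference -0.29 ± 0.18, edgeR adjusted p = 0.524). The elesclomol and combination libraries overlapped PBS with means of 66.8 ± 12.4 and 69.3 ± 3.87 CPM. Its relatives GPRC5A, GPRC5B and GPRC5C were below the filter, with at most 0.182, 0.677 and 0.115 CPM.

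SDC1 encodes syndecan-1, the heparan sulfate proteoglycan used to identify plasma cells. It measured 1092, 1077 and 1108 CPM with PBS and 1246, 1224 and 1325 CPM with elesclomol, and the 2 groups did not overlap. The fitted difference was 0.21 ± 0.14 (interval -0.09 to 0.52; edgeR adjusted p = 0.758). Against a PBS spread of 1.03-fold, the bortezomib libraries spread over 1.42-fold (950 to 1353 CPM) and the delayed combination libraries over 1.48-fold (942 to 1395 CPM), both on each side of PBS. The combination had 1055 ± 77.5 CPM. Of 16 syndecan and heparan sulfate genes 12 were tested and none passed. NDST1, an enzyme that sulfates heparan sulfate, had the smallest p of the list, with 34.1 ± 2.24 CPM in the combination and 22.5 ± 3.84 CPM with PBS (log2 difference 0.61 ± 0.15, edgeR adjusted p = 0.19). Heparanase (HPSE), which trims these chains and favours shedding of syndecan-1, was at 7.03 ± 1.33 and 10.5 ± 1.98 CPM in the same groups (edgeR adjusted p = 0.325).

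CD38, an NAD-consuming ectoenzyme and the target of daratumumab and isatuximab, was at 502 ± 33.3 CPM with PBS. The treated groups had means of 529 to 587 CPM and all overlapped PBS. Fitted changes were 0.20 ± 0.13 for bortezomib, 0.22 ± 0.13 for elesclomol, 0.12 ± 0.13 for the combination and 0.08 ± 0.13 for the delayed combination. The upper limits of these intervals were 0.48, 0.50, 0.40 and 0.35. BST1 (CD157), the paralog of CD38, did not exceed 0.378 CPM, and the 4 tested genes of the NAD and adenosine list gave no call. The complement inhibitors CD46, CD55 and CD59, which protect cells from antibody-directed complement, also gave none. CD55 had 40.0 ± 2.02 CPM with elesclomol and 26.1 ± 2.55 CPM with PBS, without overlap (log2 difference 0.62 ± 0.18, edgeR adjusted p = 0.362).

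CD28, a T cell costimulatory receptor that myeloma cells also carry, was at 389 ± 16.1 CPM with PBS and 354 to 397 CPM in the treated groups, with overlap in each. Its fitted changes lay between -0.13 and 0.03. The T cell markers CD3D and CD3E did not exceed 0.365 and 0.420 CPM in any library. The 10 T and NK cell markers found summed to 13.4 to 30.3 CPM, of which NCAM1 alone held 11.2 to 29.4 CPM, and 2 were tested. Of the 15 libraries, CD28 (42.6% transcript GC) ranked 13th, 15th and 14th in the 3 that followed GC content. The antigens of lower transcript GC did not all share this. CD38 (42.4%) ranked 12th, 14th and 9th in them, TNFRSF17 (42.1%) 3rd, 1st and 6th, and CD47 (38.4%) 5th, 13th and 6th. The gene most like CD28 was MTUS1 (r = 0.952), a microtubule-associated tumour suppressor candidate. It was at 47.4 to 53.8 CPM with PBS and at 32.3, 21.7 and 24.8 CPM in those 3 libraries. The choice of MTUS1 by likeness to CD28 over the same libraries brings this pattern with it. The part of base composition in these ranks was not tested. The CD28 ligand CD86 was at 8.82 ± 1.01 CPM with PBS and 14.2 ± 5.87 CPM in the delayed combination (edgeR adjusted p = 0.416), and CD80 did not exceed 0.150 CPM. The 7 tested genes of this pathway gave no call.

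CD47, the ligand of SIRPA that restrains phagocytosis by macrophages, varied least. It measured 179.9, 179.7 and 182.8 CPM with PBS and 157.8, 166.0 and 155.0 CPM in the combination. The combination libraries all lay below PBS, and the difference was -0.18 ± 0.08 (interval -0.35 to -0.01; edgeR adjusted p = 0.36). Its sign depended on the processing. CD47 has the lowest transcript GC of the set, 38.4%, and after a correction for GC content and length the same difference was 0.17 ± 0.18. The bortezomib libraries had 174.7, 170.8 and 171.5 CPM and the elesclomol libraries 156.3, 172.9 and 171.8 CPM, all below PBS, while the delayed combination at 190.1, 173.8 and 165.9 CPM overlapped it. Of the CD47 pathway 6 of 8 genes were tested and none passed. QPCTL, the glutaminyl cyclase that modifies CD47 for SIRPA binding, was at 35.5 ± 4.34 CPM in the combination and 24.9 ± 0.653 CPM with PBS (log2 difference 0.51 ± 0.13, edgeR adjusted p = 0.198). Calreticulin (CALR), a phagocytosis signal when at the surface, was at 1014 ± 62.4 CPM with bortezomib and 835 ± 30.5 CPM with PBS (edgeR adjusted p = 0.449).

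Antigens whose 3 libraries did not overlap those of PBS were counted beside all tested genes. For bortezomib there were 2 of 10, both lower (GPRC5D and CD47), where 20.2% of tested genes did not overlap. For elesclomol there were 3 (SDC1 higher, TNFRSF17 and CD47 lower; background 19.8%), for the combination 3 (FCRL5 and LY9 higher, CD47 lower; background 22.2%) and for the delayed combination 1 (TNFRSF17 higher; background 27.5%).

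Among 31 other surface antigens of myeloma, 25 were tested and none passed. CXCR4, the receptor for the marrow chemokine CXCL12, had 193 ± 65.0 CPM with bortezomib and 67.2 ± 19.7 CPM with PBS without overlap (log2 difference 1.52 ± 0.32, edgeR adjusted p = 0.419). SEMA4A was at 409 ± 46.8 CPM in the combination and 325 ± 9.89 CPM with PBS (edgeR adjusted p = 0.296). ITGB7, integrin beta 7, was at 1795 to 2788 CPM over the 15 libraries. Of the plasma cell regulators, 13 of 13 were tested and none passed. XBP1, the factor that drives the secretory programme, had 2867 ± 192 CPM with elesclomol and 2227 ± 228 CPM with PBS (log2 difference 0.36 ± 0.10, edgeR adjusted p = 0.362). POU2AF1, the octamer coactivator, had 148 ± 7.74 CPM in the delayed combination and 178 ± 12.6 CPM with PBS (edgeR adjusted p = 0.421). Over the 12 lists, 89 of 123 genes were tested and 0 passed in the main edgeR fit in each of the 9 comparisons. DESeq2 called 1 of them for bortezomib and 2 for elesclomol against PBS. Of 695 values of 41 example genes of the lists under the alternative settings, 21 passed. CXCR4, NDST1, CD55, SLAMF6, CD48, CD86, SEMA4A, QPCTL, APH1A and XBP1 each passed under at least 1 alternative, in the comparison given for each. So did CD200 with bortezomib, GRB2, APH1B and POU2F2 in the combination and CIITA in the delayed combination, each against PBS. At an unadjusted p under 0.05 edgeR gave 16, 10, 20 and 14 of the 89 in the 4 comparisons with PBS, where the backgrounds were 10.6%, 8.07%, 13.6% and 11.1% of tested genes.

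The most similar genes of the other antigens over the 15 libraries were CLU for SDC1 (r = 0.914), C1orf216 for TNFRSF17 (r = 0.886), CSGALNACT2 for SLAMF7 (r = 0.911), PDE3B for CD38 (r = 0.811), TREML2 for GPRC5D (r = 0.878), PLPP5 for LY9 (r = 0.907), AGO1 for TNFRSF13B (r = 0.862) and SPRTN for CD47 (r = 0.903). They are given as descriptions over 15 libraries that share depth and base composition with each point. None of the antigens was the closest gene of another.

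Weighting the libraries by quality changed the calls in the combination. With limma voom and such weights, FCRL5 (log2 difference 1.06, adjusted p = 0.0423) and LY9 (0.34, adjusted p = 0.0291) passed as higher and CD47 (-0.21, adjusted p = 0.0412) as lower than with PBS, 3 of 10 antigens where 10.7% of tested genes passed. Without the weights, voom called 0 of the 10 (0% of tested genes), with adjusted p-values of 0.36 for FCRL5, 0.311 for LY9 and 0.346 for CD47. Weighted voom called 0 of the 10 for bortezomib (5.66% of tested genes), elesclomol (0.413%) and the delayed combination (1.28%). DESeq2 called 0 of the 10 in each of the 4 comparisons with PBS, where it called 0.0688%, 0.374%, 0.39% and 0.39% of tested genes.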

How the data were processed

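Total RNA from 15 flushed marrow samples was sequenced after ribosomal RNA depletion with a stranded kit, per the labels' protocols. The deposited values are raw read counts per Ensembl gene, which the authors made with STAR 2.5.4b and featureCounts 1.6.1 on GRCh37, per the submitters' processing notes. Not given in the sources used here are the strand setting, the annotation release and the handling of mouse reads, so reads of conserved mouse transcripts may be counted.

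Samples were grouped by title. Genes were kept by filterByExpr (minimum count 10) and entered 1 model of all 15 libraries without covariates, with TMM factors and the robust quasi-likelihood test of edgeR 4.0.16 in R 4.3.3. The biological coefficient of variation was 0.171, and the threshold was an adjusted p of 0.05. There were 9 comparisons, namely 4 treatments against PBS, 4 between treatments and the interaction. Replicate libraries all differed by more than sampling noise, and PBS libraries differed least. The chi-square per degree of freedom was 2.249 to 3.239 between PBS libraries and 5.624 to 27.234 within the treated groups. This measure also grows with depth, which was lower with PBS than in most treated libraries. The labels call replicate libraries separate tumours, and p-values measure the spread between them, shared over the 5 groups. Names, exon lengths and GC content came from GENCODE 29, and promoters from RefSeq. Code was tested on simulated data. Plots used Python 3.11.15.

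The antigens and the pathway lists were chosen with earlier results of these data known. All 10 antigens are named in each group. Of each list, up to 4 genes with the smallest p over the PBS comparisons could be named, and CD79A, CD79B, CR2, BACH2, ITGB7 and the levels of untested genes were named after their values were seen. For each antigen the 3 most similar genes were found by Pearson correlation of log2 CPM among genes averaging 3 log2 CPM or more. Alternatives were voom of limma 3.58.1 with quality weights, DESeq2 1.42.0, its size factors in edgeR, no filter, mitochondrial genes left out, a replicate block, a fit of the groups compared alone, a covariate for the host marker level, omission of the 3 libraries that followed GC content or of each library in turn, and longest-transcript lengths. A correction for GC content and length (loess, span 0.3, 12794 genes or 97.8%) was added after seeing the data, as were voom without quality weights and a blocked fit, by replicate number, of only the bortezomib and combination libraries. Same-numbered libraries of these 2 groups deviated together from their group means (correlations 0.637, 0.502 and 0.109, other pairs -0.570 to 0.210), a pairing that comes from these values, not from the labels.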

Additional observations from a re-analysis of the deposited data

How the results depend on the processing

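The counts of antigens called against PBS and between treatments were 0 under each alternative except 2. Limma voom with quality weights called 3 in the combination against PBS, and 0 without the weights, and leaving out single libraries gave 0 to 1 in the delayed combination against PBS, the 1 being FCRL5 without delayed combination 1. Pathway genes called were 1 (bortezomib) and 2 (elesclomol) with DESeq2, and 1 in the combination against elesclomol and 1 for the interaction. Without the 3 libraries that followed GC content they were 1 for elesclomol and 2 for the interaction. Only these 2 alternatives were counted over all list genes. Of 695 values of example genes under all alternatives, 21 passed. The cause was not tested.

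Antigen changes that turned sign had fitted sizes of at most 0.180, the size for CD47 in the combination. None passed in edgeR, and weighted voom called that CD47 value alone among them. With the correction for GC content and length, values against PBS were -0.087 for SDC1, 0.077 for TNFRSF17, 0.011 for CD28, 0.256 for CD47 and 0.038 for ENPP1 with bortezomib, 0.009 for CD47 with elesclomol, -0.032 for TNFRSF13B and 0.172 for CD47 in the combination, and -0.067 for SDC1 and 0.274 for CD47 in the delayed combination. With voom they were 0.057 for SLAMF7 and -0.008 for LY9 with bortezomib, and -0.051 for SDC1 and 0.017 for SLAMF7 in the delayed combination. Without the 3 libraries they were -0.030 for SDC1 and 0.058 for SLAMF7 with bortezomib and 0.101 for TNFRSF13B in the delayed combination, which was 0.014 with no filter. THBS1 with elesclomol turned from 1.90 to -0.40 once the host marker level was a covariate.

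Leaving out single libraries gave, with bortezomib, -0.034 to 0.218 for SDC1, -0.167 to 0.016 for TNFRSF17, -0.106 to 0.055 for SLAMF7, -0.049 to 0.158 for LY9 and -0.260 to 0.004 for ENPP1. With elesclomol it gave -0.254 to 0.079 for FCRL5 and -0.173 to 0.017 for LY9. In the delayed combination it gave -0.117 to 0.186 for SDC1, -0.178 to 0.051 for SLAMF7, -0.021 to 0.153 for CD38, -0.201 to 0.103 for TNFRSF13B and -0.102 to 0.009 for CD47.

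By longest transcript in place of exon length, the PBS level per kb was 331.9 CPM for SDC1 and 245.8 CPM for TNFRSF17. It was 111.2 CPM for SLAMF7, 88.7 CPM for CD38, 80.8 CPM for CD28 and 72.2 CPM for GPRC5D. For CD47 it was 26.6 CPM, for LY9 23.4 CPM, for TNFRSF13B 15.99 CPM and for FCRL5 9.58 CPM. The order of CD28 and CD38 thus depends on the length used, while SLAMF7 stayed above them and GPRC5D below. Replicate numbers went together in 1 of the 10 pairs of groups, bortezomib and combination, and in the other 9 they did not pair the samples. With the replicate block in the model of all libraries 0 antigens were called. FCRL5 in the combination against PBS was then 0.80 (edgeR adjusted p = 0.378). Precision was limited by 3 libraries a group and, for TNFRSF13B, by as few as 108 counts.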
